A study of Mus musculus with 12 samples.

Results

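The BCL2 family decides whether a cell survives or dies through its mitochondria, and its transcripts were followed here through 3 stages of early T cell development. The set held 10 genes, the survival genes Bcl2, Bcl2l1 and Mcl1 and the death genes Bcl2l11, Bmf, Bid, Bax, Bak1, Bad and Bbc3. Members were all probe sets of the array whose single gene symbol was one of these names. By that rule 9 of the 10 genes had a probe set, 31 probe sets in all of 34958 with 1 symbol. The gene left without one was Bax, which is not analysed here. All 9 measured genes passed the filter on dim signals, as did 11169 of the 18194 genes on the array.

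The samples were double negative (DN) thymocytes, immature T cells that carry neither CD4 nor CD8, from C57BL/6 females aged 5 to 6 weeks. DN2 cells were sorted as CD44+CD25+, DN3 cells as CD44-CD25+ and DN4 cells as CD44-CD25-. Before the sort, CD4+ and CD8+ cells were removed magnetically, and every group was gated to be negative for CD4, CD8, CD3, NK1.1 and TCR gamma-delta. There were 4 independent sorts, each from a pool of 4 mice (16 mice in all), and each sort gave 1 DN2, 1 DN3 and 1 DN4 sample, so that 12 Affymetrix Mouse Genome 430 2.0 arrays form 3 groups of 4. The labels name no treatment or transgene.

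As background, Bcl2, Bcl-xL (the product of Bcl2l1) and Mcl1 hold the mitochondrial outer membrane intact, and Bax and Bak (the product of Bak1) break it open to release cytochrome c. The BH3-only proteins sense stress or the loss of survival signals and either block the survival proteins or engage Bax and Bak. They are represented here by Bim (Bcl2l11), Bmf, Bid, Bad and Puma (Bbc3). In the thymus, interleukin 7 is known to maintain Bcl2 in early progenitors, cells that fail to make a T cell receptor beta chain die at the DN3 stage, and Bim is required for the deletion of self-reactive cells later in development.

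Of these genes, Bcl2, Bmf and Bid were called as changed between stages in a fit of stage means that leaves the pairing of samples by sort out. With the sort as a block these calls held, and Bcl2l11 and Bcl2l1 were called as well, as given with each gene. Bcl2 fell at both steps, Bid rose at both, and Bmf rose from DN2 to DN3 and fell from DN3 to DN4. The 250 bases before the transcription start of these 3 genes are printed because they are the members that the results turn on. They are RefSeq sequences of the mouse build GRCm38.p6 on the minus strand, written 5′ to 3′. Capitals mark an E-box (CANNTG, the site class of E proteins) or a GC box (GGGCGG), searched on both strands, and no match of one overlapped a match of the other. The Bcl2 window lies at chr1:106714291-106714540, the Bmf window at chr2:118549687-118549936 and the Bid window at chr6:120916825-120917074. RefSeq listed 3 starts for Bmf, and the one printed is the farthest 5′.
Bcl2: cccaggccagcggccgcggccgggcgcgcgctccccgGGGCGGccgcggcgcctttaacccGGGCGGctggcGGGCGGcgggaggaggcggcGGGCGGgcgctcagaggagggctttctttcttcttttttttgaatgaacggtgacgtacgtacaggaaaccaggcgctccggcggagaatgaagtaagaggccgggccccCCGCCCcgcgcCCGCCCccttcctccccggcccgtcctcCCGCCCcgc
Bmf: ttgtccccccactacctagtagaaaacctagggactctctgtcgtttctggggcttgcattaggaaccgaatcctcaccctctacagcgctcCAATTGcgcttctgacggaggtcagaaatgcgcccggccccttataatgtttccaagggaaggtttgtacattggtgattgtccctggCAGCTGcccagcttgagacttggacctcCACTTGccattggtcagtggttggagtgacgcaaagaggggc
Bid: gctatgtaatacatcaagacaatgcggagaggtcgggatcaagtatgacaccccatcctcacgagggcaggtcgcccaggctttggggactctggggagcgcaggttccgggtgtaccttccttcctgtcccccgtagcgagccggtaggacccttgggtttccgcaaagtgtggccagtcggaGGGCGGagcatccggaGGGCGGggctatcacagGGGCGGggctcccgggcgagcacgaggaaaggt
The Bcl2 window held 7 GC boxes and 0 E-boxes, with 74.8% G and C. The Bid window held 3 GC boxes and 0 E-boxes (63.6% G and C), and the Bmf window 3 E-boxes and 0 GC boxes (54.0% G and C). Among 32851 windows of the same length before RefSeq starts, 66.2% held an E-box and 32.7% a GC box, and the median G and C content was 52.4%. These matches describe letters only, since the arrays show neither which start was used nor any bound factor.

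Levels are log2 of the quantile-normalized signal plus an offset of 5.69, the 25th percentile of all signals. A level of 4.71, the median of the table, served as the filter. A gene is represented by its brightest probe set, and since probes differ in brightness, levels are compared between stages and never between genes. A gene was called higher or lower at an adjusted p under 0.05 in limma, fitted to all genes tested with Benjamini-Hochberg adjustment. Differences are log2 values with the standard error (SE) of the fit. On this scale they understate the change of dim genes.

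Bcl2 encodes the founding survival protein of the family. Its log2 level in DN2 was 10.57, 11.00, 10.72 and 10.44 in sorts 1 to 4. In DN3 it was 9.56, 10.16, 9.87 and 9.20, and in DN4 7.79, 8.09, 8.24 and 7.79. Every DN2 sample lay above every DN3 sample and every DN3 sample above every DN4 sample, so the 3 stages did not overlap. From DN2 to DN3 Bcl2 fell by 0.99 ± 0.20 (SE, n = 4 per stage; adjusted p = 0.00779 in limma), a fold of 1.98. From DN3 to DN4 it fell by 1.72 ± 0.20 (adjusted p = 0.000268), a fold of 3.29. Between the ends, DN4 stood 6.52-fold below DN2, a log2 difference of -2.70 ± 0.20 (adjusted p = 1.54e-06). Each of the 3 differences had the same sign in 4 of 4 sorts. The step from DN2 to DN3 was no longer called without normalization between arrays (-0.80, adjusted p = 0.0740), with the mean of all probe sets (-0.51, adjusted p = 0.112), or within sorts 1 and 2 (-0.91, adjusted p = 0.122) and sorts 3 and 4 (-1.06, adjusted p = 0.100).

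The 5 Bcl2 probe sets had lower DN4 than DN2 means throughout, with log2 differences from -2.70 to -0.62. Fitted probe set by probe set, 4 of the 5 were lower in DN4 than in DN2, 3 in DN4 than in DN3 and 2 in DN3 than in DN2. Probe set 1437122_at, for example, fell from a mean level of 8.80 in DN2 to 7.83 in DN3 and 6.38 in DN4. Probe sets 1440770_at and 1443837_x_at gave -0.03 and -0.01 between DN3 and DN2, so the first step was seen by some probes of this gene and not by others.

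Bcl2l1, which encodes Bcl-xL, a survival protein known for its role in double-positive thymocytes, was not called in any comparison. Its log2 level was 7.05, 7.25, 7.58 and 7.75 in DN2, 6.43, 7.23, 7.14 and 7.73 in DN3, and 7.28, 7.78, 7.96 and 7.65 in DN4. The groups overlapped, and sort 1 was the lowest at each stage. DN3 differed from DN2 by -0.27 ± 0.26 (adjusted p = 0.573), with a lower DN3 value in 4 of 4 sorts. DN4 differed from DN3 by 0.53 ± 0.26 (adjusted p = 0.177), with a higher DN4 value in 3 of 4 sorts. With the sort as a block this second difference was called (adjusted p = 0.0338). It was not called once the Gapdh 3′/5′ ratio of each array, the log2 ratio of its 3′ to its 5′ probe set, was added to the block (0.47, adjusted p = 0.0967). The sign of this difference turned without normalization between arrays (-0.026). The other 3 Bcl2l1 probe sets were too dim to be tested.

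Mcl1 encodes a short-lived survival protein that early thymocytes are known to require. Its brightest probe set, 1448503_at, stood at 11.06, 11.46, 11.81 and 11.84 in DN2, 11.32, 11.47, 11.83 and 11.67 in DN3, and 11.16, 11.11, 11.55 and 11.42 in DN4. Sorts 1 and 2 lay below sorts 3 and 4 at each stage, and the stages overlapped. It was not called, with differences of 0.03 ± 0.19 at the first step (adjusted p = 0.940), -0.27 ± 0.19 at the second (adjusted p = 0.361) and -0.23 ± 0.19 from end to end (adjusted p = 0.368).

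Other probe sets of Mcl1 gave another picture. Of its 6 probe sets, 4 were lower in DN4 than in DN3 and 4 lower in DN4 than in DN2, when each was fitted by itself. The second brightest, 1437527_x_at, stood at 11.96, 11.89, 11.77 and 11.75 in DN2, 11.31, 11.78, 11.71 and 11.35 in DN3, and 10.92, 11.14, 10.84 and 10.76 in DN4. Its DN4 samples were the lowest 4 of the 12 and overlapped neither other stage. It fell by 0.62 ± 0.14 from DN3 to DN4 (adjusted p = 0.0144 in limma over all probe sets) and differed by -0.93 ± 0.14 between DN4 and DN2 (adjusted p = 0.000458). Probe sets 1416880_at, 1456243_x_at and 1456381_x_at were lower as well, by log2 differences of -0.58, -0.52 and -0.57 between DN4 and DN3. The suffix x marks probe sets that can match several transcripts, which applies to 3 of these 4 probe sets and not to 1416880_at. Leaving out DN3 replicate 3, DN3 replicate 4 or DN4 replicate 1, 3 or 4 made 1437527_x_at the brightest probe set, and Mcl1 was then called lower in DN4 than in DN3 (-0.68 to -0.56) and than in DN2 (-0.93 to -0.87).

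**Figure D1:**
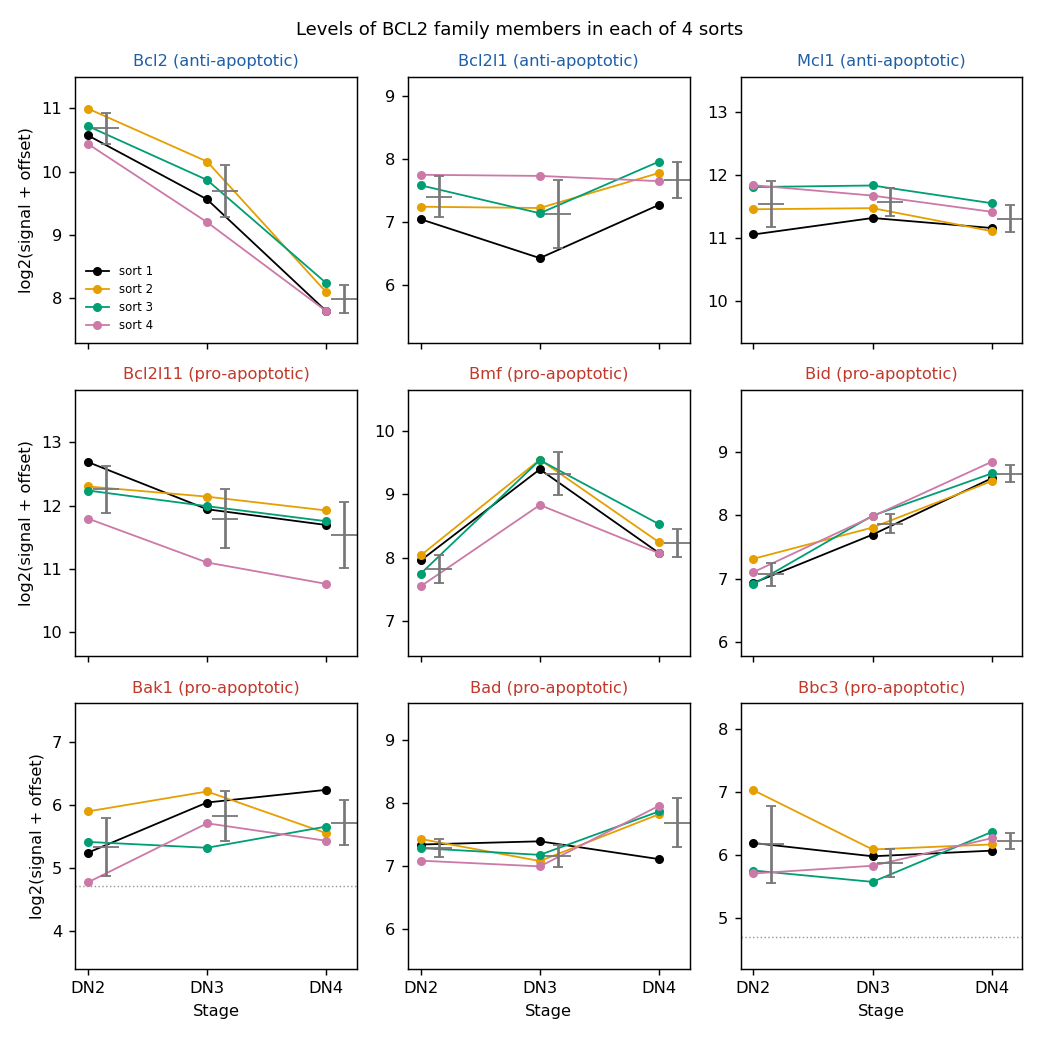
Log2 level of the 9 measured members (brightest probe set, 1 panel each) in DN2, DN3 and DN4. Colored points are the 4 sorts, joined by sort, gray bars give the mean ± SD and the dotted line the filter level of 4.71. Bcl2 steps down from a mean of 10.68 to 9.70 and 7.98, Bid steps up from 7.07 to 7.87 and 8.66, and Bmf peaks in DN3 at 9.33.

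Among the death genes, Bid and Bmf changed and moved differently. Bid is known as the link from death receptors to mitochondria, since caspase-8 cleaves it into an active fragment. Its log2 level was 6.93, 7.31, 6.91 and 7.10 in DN2, 7.70, 7.81, 8.0 and 7.98 in DN3, and 8.59, 8.54, 8.66 and 8.85 in DN4. The 3 stages did not overlap, with DN2 lowest and DN4 highest. Bid rose by 0.81 ± 0.13 from DN2 to DN3 (adjusted p = 0.00144, fold 1.75) and by 0.79 ± 0.13 from DN3 to DN4 (adjusted p = 0.00172, fold 1.73). DN4 stood 3.02-fold above DN2 (1.60 ± 0.13, adjusted p = 2.36e-06), and each difference was positive in 4 of 4 sorts. A second Bid probe set, 1448560_at, was also higher in DN4 than in DN3, by 1.38 ± 0.21 (adjusted p = 0.00145), and differed by 0.25 between DN3 and DN2, where it was not called. Probe set 1447873_x_at, dim at mean levels of 3.77, 4.84 and 4.75 in DN2, DN3 and DN4, was not called in any comparison. It gave 1.07 at the first step (adjusted p = 0.222 in limma over all probe sets) and -0.087 at the second (adjusted p = 0.927). Without normalization between arrays the second step of Bid was 0.27 (adjusted p = 0.320), and within sorts 1 and 2 neither step was called (0.62, adjusted p = 0.124, and 0.80, adjusted p = 0.0614).

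Bmf encodes a BH3-only protein that is held at the actin-linked motor complex in healthy cells. Its log2 level was 7.95, 8.03, 7.75 and 7.54 in DN2, 9.40, 9.55, 9.54 and 8.83 in DN3, and 8.07, 8.24, 8.53 and 8.07 in DN4. All DN3 samples lay above all others, and the lowest of them was that of sort 4. Bmf rose by 1.51 ± 0.18 from DN2 to DN3 (adjusted p = 0.000218, fold 2.85) and fell by 1.10 ± 0.18 from DN3 to DN4 (adjusted p = 0.00201, fold 2.15). DN4 ended 0.41 ± 0.18 above DN2, higher in 4 of 4 sorts but not called (adjusted p = 0.100). With the sort as a block this difference was called (adjusted p = 0.0286), but not with the Gapdh ratio added (0.37, adjusted p = 0.173). Its sign turned without normalization (-0.020). The probe set that carried these values, 1454880_s_at, is of a kind that can match several transcripts. The Bmf probe set without such a suffix, 1422995_at, was too dim to be tested and gave 1.01 at the first step and -0.71 at the second. Probe set 1458325_x_at, dim at mean levels of 4.70 to 5.16, was tested and not called. It gave 0.45 at the first step (adjusted p = 0.608 in limma over all probe sets) and 0.0014 at the second (adjusted p = 0.999), so it showed no fall. The fall of Bmf from DN3 to DN4 was not called within sorts 3 and 4 (-0.90, adjusted p = 0.120) or with the mean of all probe sets (-0.60, adjusted p = 0.0758).

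Bcl2l11 encodes Bim, which binds all survival proteins of the family. Its log2 level was 12.69, 12.30, 12.24 and 11.80 in DN2, 11.94, 12.14, 11.99 and 11.10 in DN3, and 11.69, 11.92, 11.75 and 10.76 in DN4. Sort 4 was the lowest at every stage, and the stages overlapped. Within each of the 4 sorts the level was lower in DN3 than in DN2 and lower in DN4 than in DN3. The differences were -0.46 ± 0.29 (adjusted p = 0.370), -0.26 ± 0.29 (adjusted p = 0.579) and, between DN4 and DN2, -0.72 ± 0.29 (adjusted p = 0.0728), none of them called. With the sort as a block, which compares samples of the same sort, Bcl2l11 was called lower in DN3 than in DN2 (-0.46 ± 0.13, adjusted p = 0.0351) and in DN4 than in DN2 (-0.72 ± 0.13, adjusted p = 0.00202). With the Gapdh ratio added, the first of these was lost (-0.56 ± 0.24, adjusted p = 0.263) and the second held (-0.79 ± 0.19, adjusted p = 0.0172). Of its 5 probe sets, 1435448_at was called lower in DN4 than in DN2 without the block (-0.93 ± 0.29, adjusted p = 0.0291). Probe sets 1426334_a_at, 1435449_at and 1456006_at were not called there. They gave -0.050, -0.14 and -0.28 (adjusted p = 0.885, 0.632 and 0.749 in limma over all probe sets). They were higher in DN4 than in DN2 in 1, 2 and 1 of the 4 sorts, so the fall within each sort was not seen by all probe sets. Leaving out each array in turn moved the DN4 against DN2 difference of Bcl2l11 from -0.88 to -0.47, with adjusted p from 0.0451 to 0.195. It was called without DN2 replicate 4 or DN3 replicate 4 and was smallest without DN4 replicate 4, where the DN4 against DN3 difference was -0.0052.

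Bad, Bbc3 and Bak1 were not called in any comparison. Bad, a BH3-only protein that growth factor signals switch off by phosphorylation, stood between 7.09 and 7.43 in DN2 and between 7.00 and 7.40 in DN3. In DN4 its log2 level was 7.11, 7.82, 7.87 and 7.96 in sorts 1 to 4, so that 3 of the 4 DN4 samples lay above all DN2 and DN3 samples and sort 1 among them. Bad differed by 0.53 ± 0.18 between DN4 and DN3 (adjusted p = 0.0640) and by 0.40 ± 0.18 between DN4 and DN2 (adjusted p = 0.100). Without DN4 replicate 1 both were called, at 0.72 (adjusted p = 0.00567) and 0.59 (adjusted p = 0.00573). With all arrays, both were also called with the mean of the Bad probe sets (0.48, adjusted p = 0.0156, and 0.36, adjusted p = 0.0285) and with array weights (0.61, adjusted p = 0.0184, and 0.50, adjusted p = 0.0356). A filter at the 75th percentile gave the DN4 against DN3 call alone (adjusted p = 0.0385). Without normalization both signs turned (-0.025 and -0.042).

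Bbc3 encodes Puma, a BH3-only protein and target of p53. It ranged from 5.71 to 7.03 in DN2, from 5.58 to 6.09 in DN3 and from 6.07 to 6.37 in DN4. Sort 2 gave the highest DN2 value, and DN4 was above DN3 in 4 of 4 sorts by 0.35 ± 0.25 (adjusted p = 0.362). The effector Bak1 was dim, from 4.77 to 5.89 in DN2, 5.32 to 6.21 in DN3 and 5.43 to 6.24 in DN4. Its stages overlapped, and its difference between DN3 and DN2 was 0.49 ± 0.26 (adjusted p = 0.279).

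**Figure D2:**
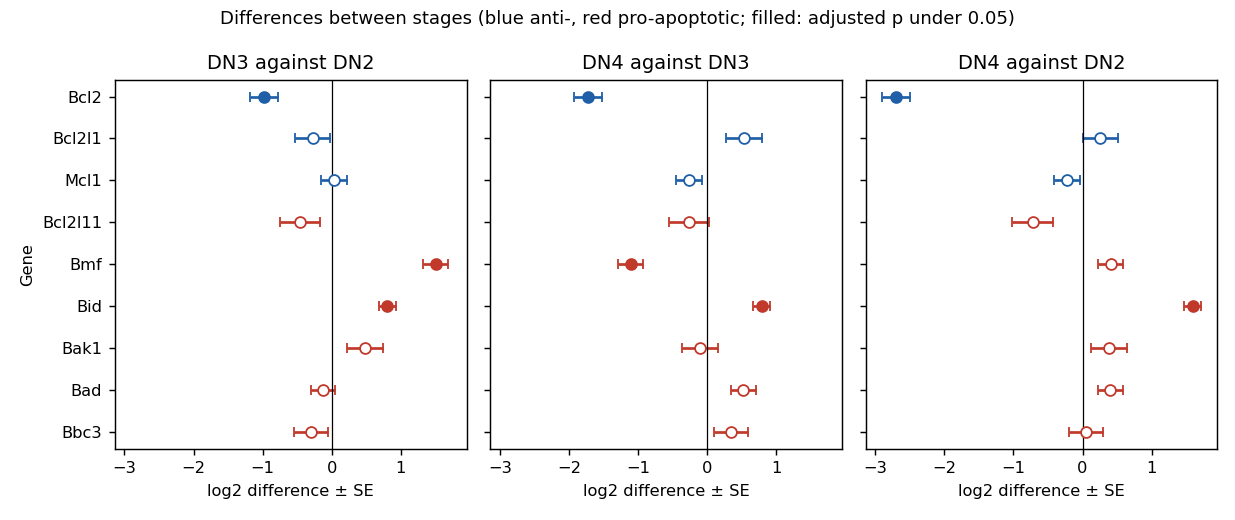
Log2 difference ± SE of each measured member in the 3 comparisons, survival genes in blue and death genes in red. Filled points have an adjusted p under 0.05 in limma. Bcl2 is lower and Bid higher in each comparison, and Bmf turns from 1.51 (DN3 against DN2) to -1.10 (DN4 against DN3).

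Set side by side, 1 of 3 survival genes and 2 of 6 death genes were called in at least 1 comparison, each by its brightest probe set. The share of all genes called in at least 1 comparison was not computed, but 34.7% were called between DN4 and DN2 alone. The share over the 3 comparisons cannot be lower than that, so the count of called members shows nothing particular to the family. With the mean of all its probe sets, Mcl1 was called lower in DN4 than in DN3 (-0.48, adjusted p = 0.0197 in limma) and than in DN2 (-0.60, adjusted p = 0.00229). Between DN3 and DN2, 2 members were higher (Bmf and Bid) and 1 lower (Bcl2), where 4.76% of all genes tested were higher and 6.46% lower. Between DN4 and DN3, 1 was higher (Bid) and 2 lower (Bcl2 and Bmf), against 7.19% and 9.02% of all genes. Between DN4 and DN2, 1 was higher (Bid) and 1 lower (Bcl2), against 17.9% and 16.7%. The share of members called in the last comparison is below that of all genes called in either direction (34.7%), so it shows nothing particular to the family. With the sort as a block the counts were 2 higher and 2 lower in each comparison. The share of all genes called with the block was not computed, so these counts cannot be set against the shares above. The groups did not overlap for 17.4%, 24.1% and 32.6% of all genes in the same order of comparisons.

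The median log2 difference of the survival genes was -0.27 between DN3 and DN2, -0.27 between DN4 and DN3 and -0.23 between DN4 and DN2. That of the death genes was 0.18, 0.12 and 0.39, and that of all genes tested 0.02, 0.05 and 0.06. These are descriptions without a test. With only 3 survival genes the median was that of a member that was not called, and the range within each role was wider than the gap between the medians. The survival genes spanned log2 differences from DN2 to DN4 of -2.70 (Bcl2) to 0.26 (Bcl2l1), and the death genes -0.72 (Bcl2l11) to 1.60 (Bid). Within single sorts the death gene median of DN4 against DN2 was -0.0013 and -0.068 in sorts 1 and 2 and 0.60 and 0.61 in sorts 3 and 4. The survival gene median was 0.10, -0.35, -0.26 and -0.42, so the direction of either was not shared by all sorts.

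**Figure D3:**
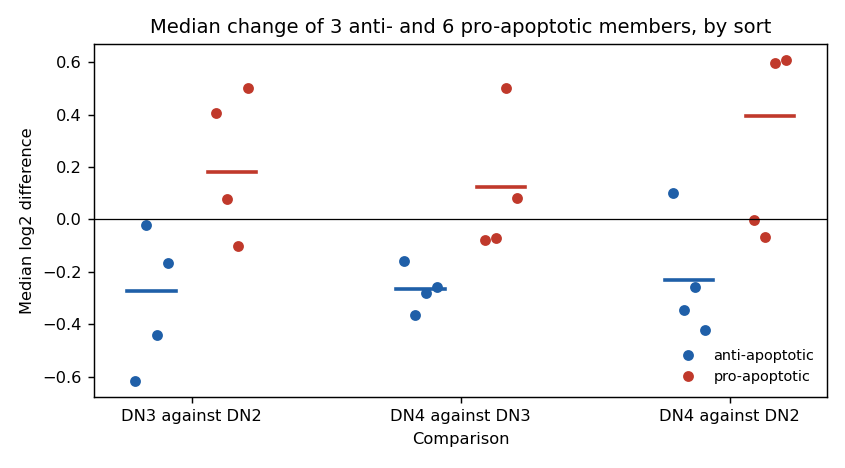
Median log2 difference of the 3 survival genes and the 6 measured death genes in each comparison. Points are the 4 sorts and the bar is the median of the fitted differences. The bars lie at -0.27, -0.27 and -0.23 for the survival genes and at 0.18, 0.12 and 0.39 for the death genes. The sorts scatter across 0 for the death genes in each comparison and for the survival genes between DN4 and DN2.

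Over all 31 member probe sets, 26 passed the filter. Of these, 4 were called between DN3 and DN2, 2 in each direction, where 8.01% of all 20366 probe sets tested were called. Between DN4 and DN3, 10 were called, 2 higher and 8 lower, against 12.5% of all. From DN2 to DN4, 11 were called, 2 higher and 9 lower, against 29.9%. The 8 lower probe sets of the second step belonged to Mcl1 (4), Bcl2 (3) and Bmf (1), and probe sets of a gene share its transcripts and are not independent. Both called Bid probe sets were higher.

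**Figure D4:**
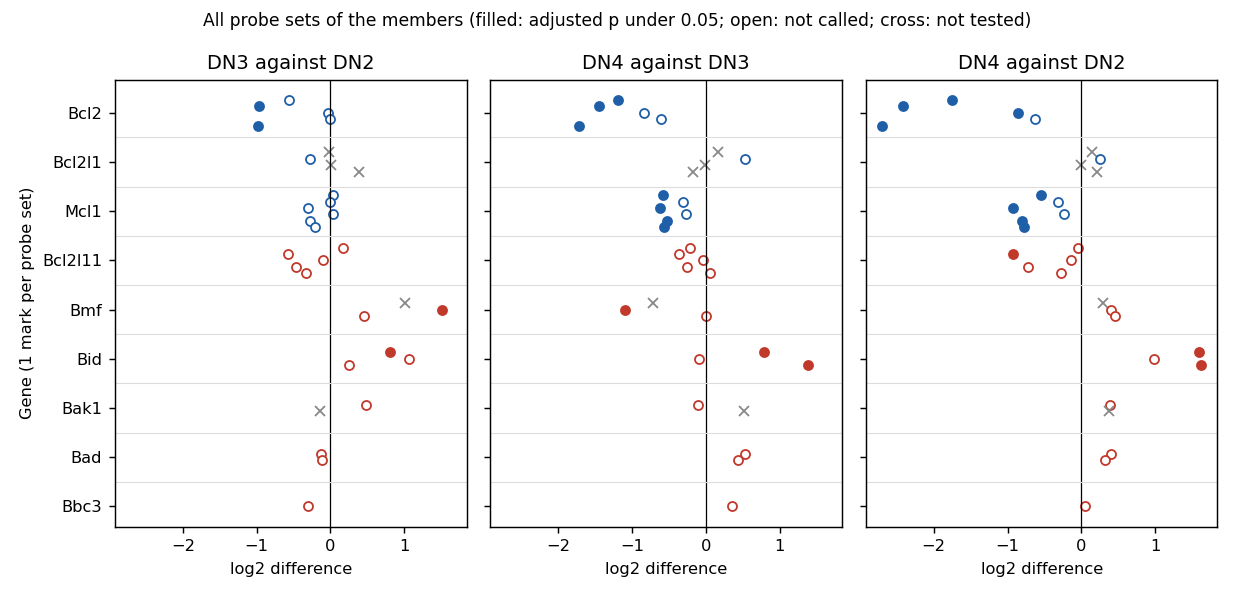
Log2 difference of every member probe set in the 3 comparisons, by gene. Filled points are called at an adjusted p under 0.05, open points are not called and crosses were too dim to be tested. The Mcl1 probe sets all lie below 0 from DN3 to DN4 (-0.62 to -0.27), and the 5 Bcl2 probe sets all lie below 0 between DN4 and DN2.

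The genes whose log2 levels followed a called member most closely over the 12 arrays are given as a description. For Bcl2 they were Rabgap1l (Pearson r = 0.986), Tmem176b (0.985) and Plaat3 (0.985). For Bid they were Lgalsl (0.988), Dhrs13 (0.985) and Ints11 (0.983). For Bmf they were Spib (0.942), Scn4b (0.927) and Unc5cl (0.926). Bcl2 and Bid mirrored each other, with r = -0.94. The 12 arrays share 3 stages and 4 sorts, so these values mostly repeat the stage means.

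Of the other BCL2 family genes listed, 9 of 17 were tested. Between DN3 and DN2, 0 of these 9 were called, where 11.2% of all genes tested were called, so a count of 0 says little. Between DN4 and DN3, Bnip3, which encodes a mitophagy receptor, rose by 0.62 ± 0.11 (adjusted p = 0.00249). Bcl2l2, which encodes the survival protein Bcl-w, fell by 0.93 ± 0.21 (adjusted p = 0.0105), and Bcl2l14 fell by 1.06 ± 0.23 (adjusted p = 0.00904). Of all genes tested, 7.19% were higher and 9.02% lower in that comparison. The same 3 genes were called in the same directions between DN4 and DN2, 1 of 9 higher and 2 of 9 lower, where 17.9% of all genes tested were higher and 16.7% lower. Pmaip1, which encodes the BH3-only protein Noxa, differed by 0.06 between DN4 and DN2 (adjusted p = 0.891).

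Caspases, their inhibitors and the factors released from mitochondria act downstream of the family. All 15 measured genes of this list were tested. Between DN3 and DN2, 1 was higher, the mitochondrial nuclease gene Endog (0.93 ± 0.19, adjusted p = 0.00841), and 0 lower, against 4.76% and 6.46% of all genes. Between DN4 and DN3, Dffb, which encodes the nuclease that cuts DNA in dying cells, was higher (0.49) and Birc2, a caspase and ubiquitin pathway regulator, lower (-0.97). That made 1 of 15 higher and 1 of 15 lower, where 7.19% and 9.02% of all genes tested were called. From DN2 to DN4, 5 were higher, with Endog at 1.51 and Dffb at 0.76, followed by Birc5 (0.80), Cycs (0.58) and Dffa (0.49). Birc5 encodes survivin, which serves in mitosis, and Cycs encodes cytochrome c. In that comparison 3 were lower, Birc2 (-0.91), Birc3 (-0.62) and Casp6 (-0.58). Across all genes tested, 17.9% were higher and 16.7% lower there, and the median difference was 0.04 for the list and 0.06 for all genes.

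In the death receptor list, 9 of 12 genes were tested. Fasl, the ligand of Fas, fell by 2.87 ± 0.41 from DN2 to DN3 (adjusted p = 0.000793) and by 1.87 ± 0.41 from DN3 to DN4 (adjusted p = 0.0102). Casp8 and its inhibitor Cflar were the other 2 genes that fell between DN2 and DN3, by 0.60 and 0.51. That made 3 of 9 lower, where 6.46% of all genes tested were lower. Casp8, whose product cleaves Bid, was lower in DN4 than in DN2 (-1.06 ± 0.15, adjusted p = 0.000223), where Bid was higher. Between DN4 and DN3, Traf2 was higher (0.61) and Tnfrsf1b lower (-1.64), beside Fasl. That made 1 of 9 higher and 2 of 9 lower, against 7.19% and 9.02% of all genes. From DN2 to DN4 the list had 2 genes higher (Fadd, 0.73, and Traf2, 0.74) and 4 lower, Tnfsf10 (-0.91) and Tnfrsf1b (-1.54) beside Fasl and Casp8, against 17.9% and 16.7% of all genes. Its median was -0.29, beside 0.06 for all genes.

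The upstream list held receptors, kinases and transcription factors known to act on the family, and 20 of its 23 genes were tested. Il7r, the receptor chain for interleukin 7, fell at both steps, by 0.49 ± 0.14 (adjusted p = 0.0365) and 1.05 ± 0.14 (adjusted p = 0.000469). Bcl2 fell at both steps too, and a link between the falls was not tested. Kit, the receptor for stem cell factor, fell by 1.86 ± 0.18 (adjusted p = 5.00e-05) and 1.08 ± 0.18 (adjusted p = 0.00260). Foxo1 was higher in DN3 than in DN2 (0.48), and Akt1 higher in DN4 than in DN3 (0.37). Each step thus had 1 of 20 higher and 2 of 20 lower. Of all genes tested, 4.76% were higher and 6.46% lower at the first step, and 7.19% and 9.02% at the second. Comparing DN4 with DN2, 3 genes were higher, Akt1 (0.42), Pim2 (0.59) and Dynll2 (0.76), and 3 lower, Il7r (-1.55), Kit (-2.94) and Foxo3 (-0.73). These 6 of 20 are a smaller share than the 34.7% of all genes called in that comparison, and the list's median was -0.07. Dynll2 encodes the motor light chain that binds Bmf.

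In bulk samples, fewer cells of a type and less RNA per cell cannot be told apart. The sort markers followed the gates: Cd44 was 12.9-fold lower in DN3 than in DN2, and Il2ra, which encodes CD25, 11.8-fold lower in DN4 than in DN3. Cd4 lay above the filter on 0 arrays, while Cd8a and Cd8b1 were higher in DN4 than in DN3 (log2 differences of 2.32 and 3.76), although CD8+ cells were gated out. The summed signals of natural killer, mast cell and myeloid markers were highest in DN2, as Bcl2 was, though not every gene followed its sum. The summed signal of 7 natural killer genes was 1844 to 2072 in DN2, 496 to 776 in DN3 and 122 to 145 in DN4, with the defining gene Ncr1 above the filter on 0 arrays. The brightest of them was Nkg7 (mean level 10.68 in DN2), and Prf1 was higher in DN3 than in DN2 (0.63, adjusted p = 0.0352). The sum of 6 mast cell genes was 2750 to 3796, 82.8 to 239.8 and 50.4 to 75.3, most of it Cpa3, with Fcer1a, Mcpt4 and Ms4a2 on 0 arrays. That of 10 myeloid genes was 437 to 1056, 171 to 260 and 111 to 221, with Itgam and Fcgr3 on 0 arrays. The sum of 6 B cell genes, most of it Ighm, was 2200 to 3498, 2784 to 3027 and 4419 to 4864. The sum of 5 genes of mature alpha-beta T cells was 390 to 712, 241 to 355 and 440.1 to 695, so it was higher in DN4 than in DN3, where Bid rose, with 1 of the 5 called higher (Cd6, 1.29). The sum of 8 dendritic cell genes was 325 to 752, 214 to 360.3 and 261 to 884, with Cd74 higher in DN4 than in DN3 (1.11). The part of such cells in the differences of the members was not tested. The log2 ratio of the 3′ to the 5′ probe set of Gapdh was 1.10 to 1.82 in DN2, 0.88 to 1.26 in DN3 and 1.02 to 1.46 in DN4, with the highest mean in DN2 (1.39). With that ratio and the sort in the fit, the 8 member differences called without the block were still called, and 3 of the 4 that the block had added were not. Of all calls, 42.5% were in the higher direction between DN3 and DN2 and 44.4% between DN4 and DN3, but 54.1% and 27.0% with arrays centred on their median and 48.5% and 1.39% without normalization, where the median gene shifted by -0.41 from DN3 to DN4.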

How the data were processed

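Transcript levels in 12 samples were read from the authors' deposited table of intensity values, linear signals per probe set from the Affymetrix software GCOS. That tool is named in the submitters' processing notes, and neither its version nor its settings is given in the sources used here. RNA went through an amplification with repeated cDNA synthesis, per the labels' protocols. Since trimmed array means (2% cut at each end) spread from 130 to 234, signals were quantile-normalized, offset and log2-transformed. The table has 45101 probe sets. Of these 64 are controls, 932 carry several symbols in the platform annotation, 9211 carry none that was listed and 34958 carry 1. RefSeq (GRCm38.p6) supplied the current symbol for 34754, and the platform's was kept for 204. Genes above the table median on at least 4 arrays were tested.

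limma 3.58.1 in R 4.3.3 fitted stage means over the 12 arrays with eBayes moderation, and two-sided p-values were adjusted by Benjamini-Hochberg over every gene tested. The code was tested on simulated data. Promoters and figures used Python 3.11.15, pandas 2.3.3 and matplotlib 3.10.9. Members, gene lists, settings and tests were chosen with earlier results of these data known. The text names all members, the called genes of each other list with the smallest adjusted p or all of a count of 5 or fewer, and for each called member the 3 genes of highest correlation. Pmaip1 and the markers were named beside that rule.

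Per the labels, samples of 1 number come from the same sort of pooled mice. Deviations from the stage means had correlations of 0.252 to 0.343 within a sort and of at most 0.108 otherwise, and each of the 12 arrays was closest to its own sort. Replicates correlated at 0.961 to 0.975, and 0 of 66 array pairs held identical values. One alternative blocked the fit on the sort number. In the fit of stage means, the p-values measure the spread between 4 sorts of pooled mice within a stage and treat arrays of 1 sort as independent. With the block, the spread shared by the arrays of a sort is taken out. Precision is limited by the number of arrays. The other alternatives were array scaling, the offset, the filter, the choice of probe sets, the arrays in the fit, moderation, weights, sorts 1 and 2 or 3 and 4 alone, and each array left out in turn.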

Additional observations from a re-analysis of the deposited data

Results flagged for a closer look

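In 27 groups of 4 arrays (9 members at 3 stages), 1 array stood apart from the others by Dixon's test, which chance does in about 1 of 20 groups. The log2 level of Bad in DN4 of sort 1 was 7.11, with the nearest of the other arrays at 7.82 and the farthest at 7.96, so that the gap made up 0.841 of the range, above the critical value for 4 samples. The other Bad probe set, 1416583_at, did not set that array apart, at 7.19 beside 7.03 to 7.39 in the other DN4 arrays.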

How the results depend on the processing

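Of the 8 called member differences, recomputed under 28 other settings (224 values), 213 stayed called in the same direction, 11 were no longer called and 0 reversed. Of the 532 values of the 19 differences not called, 32 became called and 30 changed sign. Causes were not tested. With arrays centred on their median, the survival gene median was -0.14 (DN4 against DN3) and 0.0067 (DN4 against DN2), where Mcl1 was also 0.0067 and Bbc3 -0.094. Without normalization, 0 members were lower between DN3 and DN2, with 2 probe sets called, and 0 higher between DN4 and DN3. The survival gene median was then -0.55 between DN4 and DN3, and the death gene median -0.38, with Bcl2l1 at -0.026, Bad at -0.025 and Bbc3 at -0.22. Between DN4 and DN2 the death gene median was -0.050, with Bcl2l1 at -0.19, Bmf -0.020, Bak1 -0.059, Bad -0.042 and Bbc3 -0.43. A filter at the 75th percentile gave 2 members higher between DN4 and DN3 and 2 lower between DN4 and DN2. The mean of all probe sets gave 0 lower between DN3 and DN2 (Bcl2l1 0.025, Mcl1 -0.12), 2 higher between DN4 and DN3 (Bid and Bad, survival gene median -0.48), and 2 higher and 2 lower between DN4 and DN2 (median -0.60). Bak1, too dim to be tested there, was 0.21 between DN4 and DN3. Without probe sets that can match several transcripts, 1 member was higher between DN3 and DN2 and 1 lower between DN4 and DN3, with 6 probe sets called. Array weights gave 2 higher between DN4 and DN3 and 2 between DN4 and DN2, and Mcl1 at -0.036 between DN3 and DN2.

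With the sort as a block, 2 members were lower between DN3 and DN2 (7 probe sets called), 2 higher between DN4 and DN3, and 2 higher and 2 lower between DN4 and DN2. The block ended no call. The share of all genes called with the block was not computed, so these counts have no background beside them. With the Gapdh ratio added to the block, 2 were lower between DN4 and DN2, and the block's calls of Bcl2l11 (DN3 against DN2), Bcl2l1 (DN4 against DN3) and Bmf (DN4 against DN2) were lost, with Mcl1 at -0.12 and Bbc3 at 0.15 between DN3 and DN2. In sorts 1 and 2 alone, between DN3 and DN2, 1 member was higher and 0 lower, with 1 probe set called and Mcl1 at -0.38. Between DN4 and DN3, 0 were higher, with 2 probe sets called and a survival gene median of -0.50. Between DN4 and DN2, 2 were lower, with that median at -0.88 and Bbc3 at -0.48. In sorts 3 and 4 alone, 0 were lower between DN3 and DN2 (1 probe set called, Mcl1 -0.070), 2 higher and 1 lower between DN4 and DN3 (1 probe set, Bak1 0.029), and 3 higher between DN4 and DN2. Leaving out each array in turn gave a survival gene median of -0.68 to -0.20 between DN4 and DN3 and -0.93 to -0.13 between DN4 and DN2, Mcl1 at -0.37 to 0.13 between DN3 and DN2, Bak1 at -0.27 to 0.031 between DN4 and DN3, and Bbc3 at -0.11 to 0.33 between DN4 and DN2. It ended no call. The counts of probe sets called were added after seeing the data.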
